A study of Homo sapiens with 4 samples.

Results

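Small heat shock proteins and BAG cochaperones are the partners that feed damaged proteins to the HSP70 chaperone. The genes examined were HSPB1, CRYAB, HSPB6, HSPB8 and HSPB11 of the first kind and BAG1, BAG2, BAG3 and BAG5 of the second. They were chosen by name, with earlier results of these data known, and all 9 were found among the 60617 Ensembl gene IDs of the deposited table. Their RNA was measured in 4 groups of prostate cancer cells with 1 library each. These were 22Rv1 cells given 75 µM morusin for 6 h, 22Rv1 cells without it, PC3 cells given 46 µM morusin for 6 h, and PC3 cells without it. Morusin is a prenylated flavone of mulberry root bark. 22Rv1 is a line from a human prostate carcinoma xenograft and PC3 comes from prostate cancer that had spread to bone. 22Rv1 was grown in RPMI and PC3 in F12, both with serum and antibiotics, so the line, the medium and the dose cannot be told apart. The labels do not say whether the untreated cells received a vehicle.

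Small heat shock proteins are ATP-independent chaperones that hold unfolding proteins in large oligomers until HSP70 can refold or hand them on. Their shared feature is the alpha-crystallin domain. BAG proteins carry a BAG domain that binds the ATPase domain of HSP70 and releases ADP from it. Their other domains decide where the client goes, to the proteasome in the case of BAG1 and to autophagy in the case of BAG3. Several genes of both families are targets of the heat shock factor HSF1. In prostate cells, HSPB1 has been studied as a survival protein, and a long form of BAG1 binds the androgen receptor.

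The values are FPKM (fragments scaled by transcript length and by the library's mapped fragments), a level per transcript length. FPKM summed to 408628 in treated 22Rv1, 356195 in untreated 22Rv1, 358823 in treated PC3 and 335458 in untreated PC3. The depth, estimated from the steps between low values, was 19.1 M read pairs in treated and 23.4 M in untreated 22Rv1, and 28.4 M in treated and 40.5 M in untreated PC3, and is rough. A change is the log2 ratio of FPKM + 1, treated over untreated in the same line, which understates the change of low genes. Among 9 androgen-driven luminal genes, all 9 were at 1 FPKM or more in both 22Rv1 libraries and 4 in both PC3 libraries, with 3 listed at 0 in each PC3 library. Among 12 leukocyte, fibroblast and endothelial markers, none reached 1 FPKM in 22Rv1. In PC3, 3 did, and all 12 summed to 42.9 FPKM in the treated and 30.9 FPKM in the untreated library, of which CD68 had 39.9 and 26.0 FPKM. The part of such cells in any result was not tested.

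Of the 9 genes, HSPB1 alone was at least 2-fold higher in the treated library of both lines, and it rose in the test over both lines. HSPB1 (HSP27) is the most widely expressed small heat shock protein, and p38 signalling phosphorylates it through MAPKAPK2. The gene lies on chromosome 7 at chr7:76302544-76304295 of GRCh38, on the plus strand, with 3 exons in a transcript of 909 bases. HSPB1 was at 556 FPKM in treated 22Rv1 cells, against 209 FPKM in untreated 22Rv1 cells. HSPB1 was at 204 FPKM in treated PC3 cells, against 89.3 FPKM in untreated PC3 cells. Treated PC3 thus reached about the level of untreated 22Rv1. The ratio of FPKM was 2.66 in 22Rv1 (95% counting interval 2.56 to 2.75) and 2.28 in PC3 (2.18 to 2.38). These intervals come from the estimated read pairs and cover counting error only. The log2 changes were 1.40 and 1.18. In bulk RNA, a change in the share of cells that express a gene and a change in RNA per cell cannot be told apart.

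Within a line there is no replicate check, so the test was made over the lines, with line and treatment as terms in limma. HSPB1 had a shared log2 change of 1.29 ± 0.18 (SE, 2 libraries per condition, 1 from each line). Its adjusted p was 0.015 in limma with Benjamini-Hochberg adjustment over 13980 genes. In that test 0.351% of genes were higher and 0.236% lower at an adjusted p under 0.05. The residual spread of each gene rests on 1 degree of freedom, and limma borrows the rest from other genes. That degree of freedom is the difference between the lines in the change. The SE and adjusted p thus do not measure spread between replicates of a line. The call depended on the line term and on the filter. Without the line term the adjusted p of HSPB1 in limma was 1.0, and with no filter on low values it was 0.557.

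The region before the HSPB1 start was searched for the heat shock element, the binding site of HSF1, which is built of GAA and TTC units in alternation. The search was for GAANNTTC and TTCNNGAA, each of which reads the same on both strands, in the 250 bases before each RefSeq start (GRCh38.p14). Each spelling holds 1 GAA and 1 TTC unit, so a match is shorter than a run of 3 units. At least 1 match stood in 11.6% of 35116 windows of all genes, and counted per gene symbol in 14.0% of 27305. A run of 3 alternating units stood in 0.441% of the 35116 windows. A RefSeq window was found for 8 of the 9 genes, and HSPB1, HSPB6, HSPB8 and BAG2 had a match. The bases outside annotated exons are printed for HSPB1, HSPB6, BAG1 and BAG3, the 4 genes with the highest FPKM in any library, 5′ to 3′ on the gene's strand, with matches in capitals. They are chr7:76302423-76302543 on the plus strand for HSPB1, chr19:35757034-35757279 on the minus strand for HSPB6, chr9:33264721-33264878 on the minus strand for BAG1 and chr10:119651130-119651369 on the plus strand for BAG3.
HSPB1: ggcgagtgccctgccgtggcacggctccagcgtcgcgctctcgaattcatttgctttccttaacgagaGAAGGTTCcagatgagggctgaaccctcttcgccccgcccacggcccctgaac
HSPB6: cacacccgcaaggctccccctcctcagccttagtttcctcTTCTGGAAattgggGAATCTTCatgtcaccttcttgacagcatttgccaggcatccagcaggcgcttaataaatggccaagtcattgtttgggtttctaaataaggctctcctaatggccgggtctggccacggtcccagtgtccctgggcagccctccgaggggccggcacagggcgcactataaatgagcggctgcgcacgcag
BAG1: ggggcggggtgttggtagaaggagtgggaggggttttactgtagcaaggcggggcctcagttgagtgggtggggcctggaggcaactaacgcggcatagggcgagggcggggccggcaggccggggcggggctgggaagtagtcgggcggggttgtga
BAG3: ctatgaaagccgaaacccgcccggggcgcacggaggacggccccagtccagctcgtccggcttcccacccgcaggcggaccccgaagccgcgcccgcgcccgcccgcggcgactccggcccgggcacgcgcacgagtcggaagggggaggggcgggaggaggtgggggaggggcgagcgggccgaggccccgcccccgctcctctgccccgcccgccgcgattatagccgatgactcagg
The HSPB1 match began 182 bases before the RefSeq start, and the HSPB6 matches began 210 and 196 bases before it. The HSPB8 match, GAATATTC, began 88 bases before the start, and the BAG2 match, GAACCTTC, began 124 bases before it. Both lie within exons annotated in GENCODE 29, that of HSPB8 in its own exon and that of BAG2 in an exon of ZNF451-AS1 on the opposite strand. The windows of BAG1, BAG3, BAG5 and HSPB11 held neither spelling. A match or its lack describes these letters and not binding. The HSPB6 window lies inside the GENCODE 29 gene, upstream of the shorter RefSeq start.

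**Figure D1:**
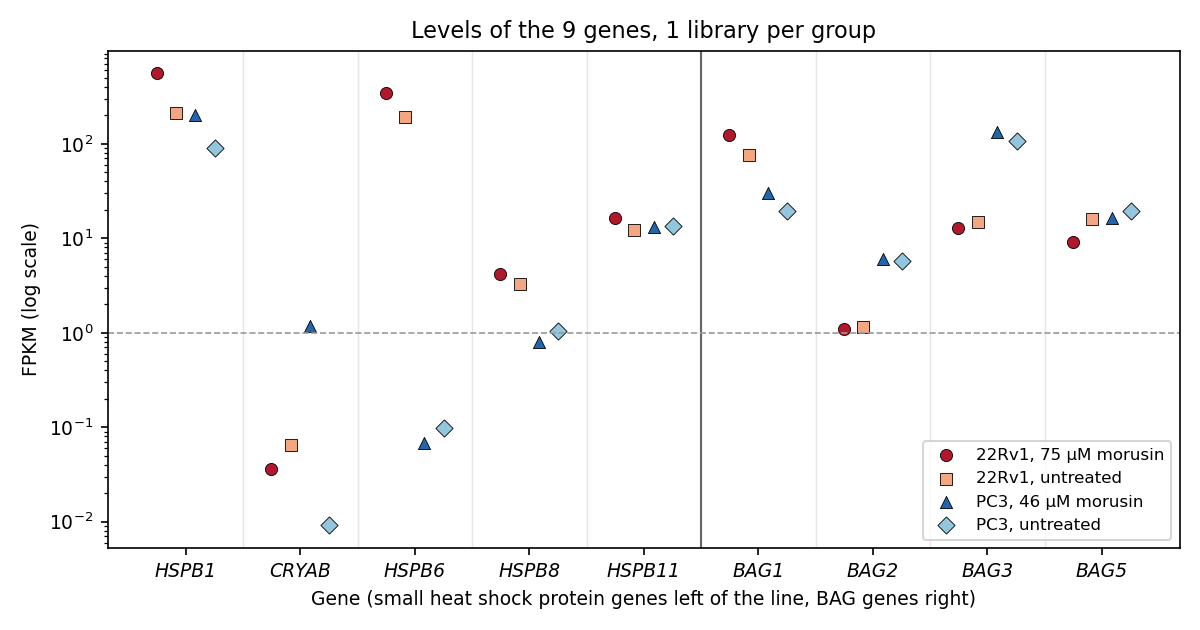
FPKM of the 9 genes (log scale) in each of the 4 libraries, 1 point per library, with small heat shock protein genes left of the solid line, BAG genes right of it, and a dashed line at 1 FPKM. HSPB1 ranges from 89.3 to 556 FPKM, while HSPB6 is at 348 and 190 FPKM in treated and untreated 22Rv1 and under 1 FPKM in PC3, and BAG3 is higher in PC3.

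HSPB6 (HSP20), a small heat shock protein best known from muscle, was abundant in 22Rv1 and nearly absent in PC3. HSPB6 was at 348 FPKM in treated 22Rv1 cells, against 190 FPKM in untreated 22Rv1 cells. HSPB6 was at 0.0675 FPKM in treated PC3 cells, against 0.0988 FPKM in untreated PC3 cells, or about 2.80 and 5.82 read pairs. The change in 22Rv1 was 0.87 on the log2 scale, under the size of 2-fold, with a ratio of FPKM of 1.84 (counting interval 1.78 to 1.89). In PC3 the gene did not pass the filter of 1 FPKM. PROSER3, 64 bases away on the opposite strand, was at 20.6 FPKM in treated and 16.9 FPKM in untreated 22Rv1 cells. HSPB6 ranked 153rd among all genes in treated 22Rv1 and 229th in untreated 22Rv1, close to the 92nd and 216th place of HSPB1. Untreated 22Rv1 had 1921 times the HSPB6 of untreated PC3 (counting interval 852 to 4329). Against a floor of 3 pairs in treated PC3, treated 22Rv1 was 4811-fold higher, a value that leaves out counting error and is not a lower bound.

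CRYAB, the gene of alpha-B-crystallin of lens and muscle, was at the limit of detection in every library apart from treated PC3. CRYAB was at 0.0361 FPKM in treated and 0.0648 FPKM in untreated 22Rv1 cells. CRYAB was at 1.18 FPKM in treated PC3 cells, against 0.00919 FPKM in untreated PC3 cells. That is about 32.7 read pairs in treated and 0.363 in untreated PC3. Set against a floor of 3 pairs in the untreated library, the level in treated PC3 was 15.5-fold higher, and the log2 change of FPKM + 1 was 1.11. That fold leaves out counting error and is not a lower bound. The counting interval of the ratio of FPKM ran from 4.86 to 3371. It is unreliable, since it rests on about 0.363 read pairs in untreated PC3. CRYAB passed the filter in PC3 only through the treated library, so it had to differ there, and with a pseudocount of 5 its change was 0.30. It was not in the shared test, since it reached 1 FPKM in a single library. The gene overlaps HSPB2, HSPB2-C11orf52 and C11orf52 on the opposite strand. In PC3, HSPB2 was listed at 0 and C11orf52 was at 0.335 FPKM in treated and 0.290 FPKM in untreated cells.

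HSPB8 (HSP22) is the small heat shock protein that binds BAG3, and with it directs clients to autophagy. HSPB8 was at 4.22 FPKM in treated 22Rv1 cells, against 3.27 FPKM in untreated 22Rv1 cells, and at 0.793 FPKM in treated PC3 cells, against 1.04 FPKM in untreated PC3 cells. In PC3 its counting interval for the ratio, 0.539 to 1.08, included 1, and in 22Rv1 it ran from 1.04 to 1.60. HSPB11, now named IFT25, is grouped with this family by name, but works in intraflagellar transport of the cilium. HSPB11 was at 16.3 FPKM in treated and 12.2 FPKM in untreated 22Rv1 cells, and at 13.3 FPKM in treated and 13.6 FPKM in untreated PC3 cells. Of the 5 small heat shock protein genes HSPB11 thus varied least across the libraries.

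Among the BAG genes, BAG1 was higher in the treated library of each line, at less than 2-fold, and did not pass the test. BAG1 exchanges the nucleotide of HSP70 and ties it to the proteasome through a ubiquitin-like domain. BAG1 was at 125 FPKM in treated 22Rv1 cells, against 75.8 FPKM in untreated 22Rv1 cells. BAG1 was at 30.1 FPKM in treated PC3 cells, against 19.3 FPKM in untreated PC3 cells. The ratios of FPKM were 1.65 (counting interval 1.55 to 1.75) and 1.56 (1.42 to 1.72). The shared log2 change of BAG1 was 0.67 ± 0.18 (SE), with an adjusted p of 0.141 in limma. The neighbouring gene CHMP5 starts 159 bases away on the opposite strand and was at 38.2 FPKM in treated and 32.5 FPKM in untreated 22Rv1 cells, and at 32.9 FPKM in treated and 28.9 FPKM in untreated PC3 cells.

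BAG3 is the stress-inducible member that joins HSP70 to HSPB8 and to selective autophagy. BAG3 was at 13.0 FPKM in treated 22Rv1 cells, against 14.7 FPKM in untreated 22Rv1 cells. BAG3 was at 133 FPKM in treated PC3 cells, against 106 FPKM in untreated PC3 cells. The ratio of FPKM was thus 0.881 in 22Rv1 (counting interval 0.796 to 0.976) and 1.25 in PC3 (1.22 to 1.29), with log2 changes of -0.17 and 0.32. The shared log2 change was 0.08 ± 0.20 (SE), with a 95% interval of -0.38 to 0.53 and an adjusted p of 0.862 in limma. The sign of that shared change turned after rescaling to equal sums (-0.06). The difference between the lines could not be tested, since it leaves no residual degrees of freedom.

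BAG2 inhibits the ubiquitin ligase CHIP, and BAG5, which holds several BAG domains, inhibits the ligase parkin. BAG2 was at 1.09 FPKM in treated and 1.14 FPKM in untreated 22Rv1 cells, and at 6.04 FPKM in treated and 5.69 FPKM in untreated PC3 cells. BAG5 was at 9.11 FPKM in treated 22Rv1 cells, against 15.8 FPKM in untreated 22Rv1 cells, and at 16.4 FPKM in treated PC3 cells, against 19.6 FPKM in untreated PC3 cells. BAG5 had log2 changes of -0.74 in 22Rv1 and -0.24 in PC3, and a shared log2 change of -0.49 ± 0.22 (SE) with an adjusted p of 0.271 in limma. BAG5 overlaps KLC1, which runs the other way and was at 26.6 FPKM in treated and 24.4 FPKM in untreated 22Rv1 cells, and at 47.6 FPKM in treated and 74.1 FPKM in untreated PC3 cells. Whether strand was used when reads were assigned is not stated. Reads of BAG5 and KLC1, of BAG2 and RAB23, or of CRYAB and its partners cannot be told apart where they overlap.

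Counted over the family, 1 of 8 measured genes was at least 2-fold higher in treated 22Rv1, where 3.48% of 13361 genes were, and 0 were at least 2-fold lower, where 1.02% were. In PC3, HSPB1 and CRYAB were at least 2-fold higher, 2 of 8 measured genes, and 0 were lower, where 1.24% of 12907 genes were higher and 2.64% lower. CRYAB had to differ to be measured, and without it 1 of 7 was higher. The median log2 change was 0.34 over the members and -0.01 over all genes in 22Rv1, and 0.20 and -0.05 in PC3, where it was 0.07 over the members without CRYAB. In the shared test 1 of 8 members rose and 0 fell at an adjusted p under 0.05 in limma, with HSPB1 and BAG1 higher and none lower at an unadjusted p under 0.05, where 7.75% of all genes were higher and 10.8% lower. HSPB1 ranked 114th by change in 22Rv1 and 121st in PC3. The 9 genes summed to 1074 FPKM in treated 22Rv1 cells, against 522 FPKM in untreated 22Rv1 cells, and to 405 FPKM in treated PC3 cells, against 255 FPKM in untreated PC3 cells. HSPB1 made up 51.8% of that sum in treated and 40.1% in untreated 22Rv1, and 50.3% in treated and 35.0% in untreated PC3.

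**Figure D2:**
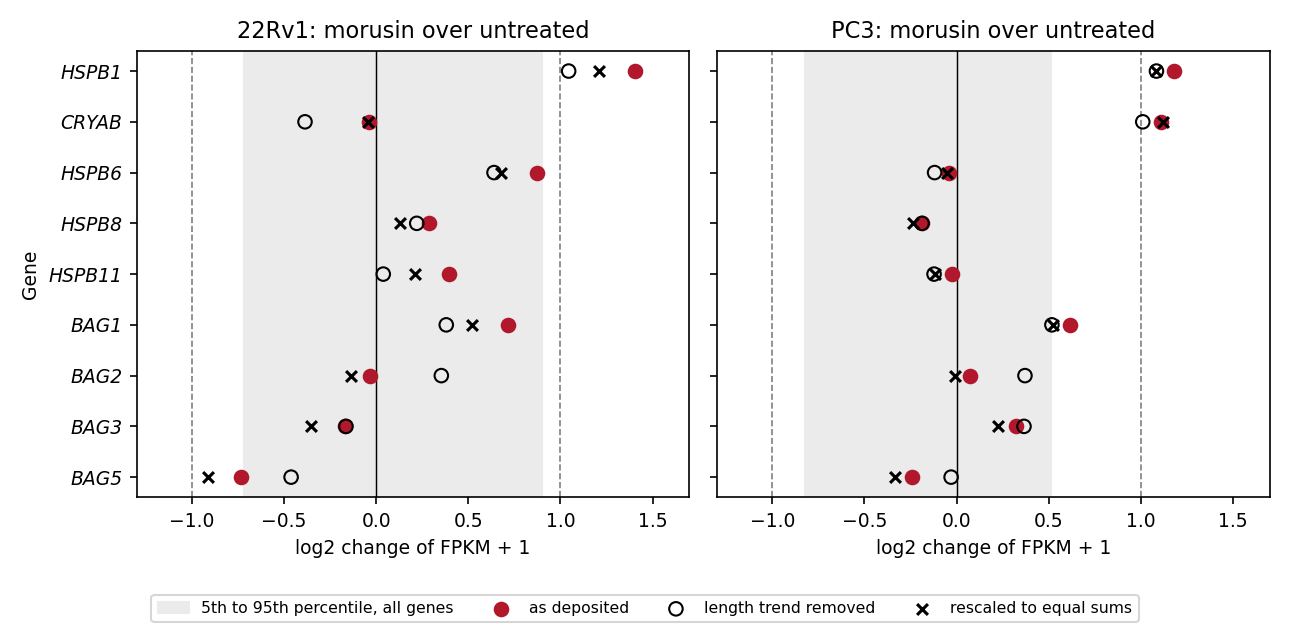
Log2 change of FPKM + 1, morusin over untreated, for the 9 genes in 22Rv1 (left) and PC3 (right), as deposited (filled), with the trend on transcript length removed (open) and with libraries rescaled to equal sums (cross). Dashed lines mark 2-fold and the grey band the range from the 5th to the 95th percentile of all measured genes. HSPB1 lies above 1 in both lines under each setting shown, while CRYAB in 22Rv1 and HSPB6 in PC3 are under 1 FPKM and were not counted as measured.

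Changes in both lines moved with transcript length, and the members differ widely in it. Among protein-coding genes of 300 to 1200 bases the median log2 change was 0.50 in 22Rv1, with 88.1% of 1225 genes above 0, and 0.19 in PC3, with 73.5% of 1168 above 0. Among those of 5000 to 20000 bases it was -0.42 in 22Rv1 and -0.30 in PC3. HSPB1, HSPB11, CRYAB and BAG1 have 909 to 1038 bases, whereas BAG5 has 4848 and BAG2 6651. With this trend removed, the change of HSPB1 was 1.04 in 22Rv1 and 1.09 in PC3, still at 2-fold, and its shared change was 1.06 ± 0.15 (SE) with an adjusted p of 0.0112 in limma. HSPB11 in 22Rv1 was then at 0.04 and BAG1 at 0.38, against 0.40 and 0.71 as deposited. BAG5 was at -0.46 in 22Rv1 and -0.03 in PC3. BAG2 was at 0.35 in 22Rv1 and 0.37 in PC3, against -0.03 and 0.07 as deposited, so its sign in 22Rv1 depended on this setting. The part of RNA quality or library preparation in the length trend was not tested.

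**Figure D3:**
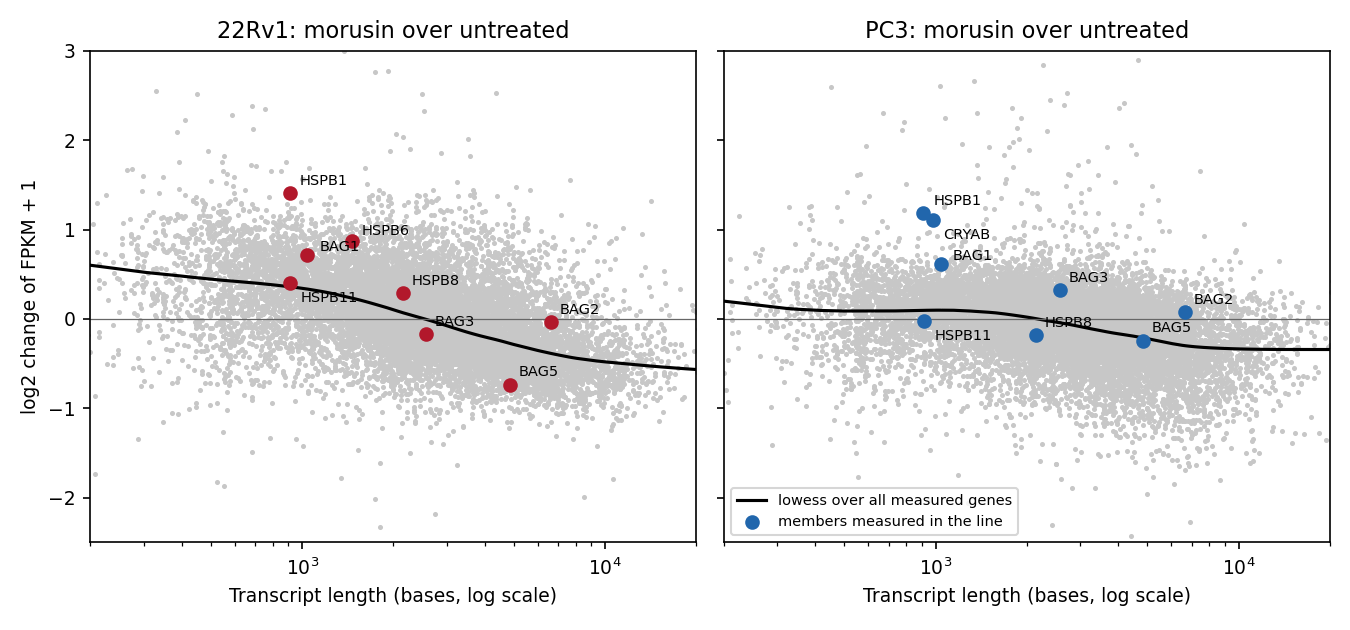
Log2 change of FPKM + 1, morusin over untreated, against transcript length (bases, log scale) in 22Rv1 (left) and PC3 (right), with all measured genes in grey, the lowess trend as a line and the measured members named. The trend falls with length in both lines, HSPB1 lies above it in each, and HSPB11 lies near it in 22Rv1. Genes beyond the ends of either axis are not drawn.

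The untreated lines differed in which members they used. Of 8 measured members, 4 were at least 2-fold higher in untreated 22Rv1 than in untreated PC3, where 19.8% of 14363 genes were, and 2 at least 2-fold lower, where 19.2% were. HSPB6, BAG1, HSPB1 and HSPB8 were the higher ones, with ratios of FPKM of 1921, 3.94, 2.35 and 3.15. HSPB8 is low and was under 2-fold on the log2 scale after median centring (0.96) and with a pseudocount of 5 (0.45). BAG3 and BAG2 were the lower ones, with ratios of 0.138 and 0.201. BAG5 and HSPB11 were within 2-fold. BAG1 made up 84.4% of the summed BAG1, BAG2, BAG3 and BAG5 FPKM in treated and 70.5% in untreated 22Rv1, where BAG3 had 8.74% and 13.7%. In PC3 the order was turned, with BAG3 at 71.7% in treated and 70.5% in untreated cells and BAG1 at 16.2% and 12.8%. HSPB1 was at 42.9 times the FPKM of BAG3 in treated and 14.3 times in untreated 22Rv1, and at 1.53 times in treated and 0.840 times in untreated PC3.

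The difference between the lines in the response is a size with no test. The change in 22Rv1 minus that in PC3 was 0.22 for HSPB1 and 0.10 for BAG1. It was 0.91 for HSPB6 and -1.15 for CRYAB, which are each near 0 FPKM in one of the lines. It was 0.47 for HSPB8, 0.42 for HSPB11, -0.11 for BAG2, -0.49 for BAG3 and -0.49 for BAG5. Past 2-fold were 0 members in the direction of 22Rv1, where 3.52% of 15028 genes were, and CRYAB in the direction of PC3, where 1.1% were. CRYAB entered this comparison only through the treated PC3 library, so it had to differ.

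The chaperone machine that these genes serve contained the strongest rises among the companion genes. Of 10 genes of the HSP70 machine, 4 passed 2-fold upward in both lines and 0 downward. The list was chosen with earlier results of these data known. Over all measured genes, 3.48% in 22Rv1 and 1.24% in PC3 were at least 2-fold higher, and 1.02% and 2.64% lower. The 4 genes rose in the shared test while 0 of the list fell. Their adjusted p in limma was 1.49e-05 for HSPA6, 0.000622 for HSPA1A, 0.00127 for HSPA1B and 0.00230 for DNAJB1. In that test 0.351% of all genes were higher and 0.236% lower. HSPA6 passed the filter in 22Rv1 only through the treated library, so it had to differ there. HSPA6, an HSP70 that is made under stress, was at 39.3 FPKM in treated and 0.0657 FPKM in untreated 22Rv1 cells, and at 132 FPKM in treated and 1.28 FPKM in untreated PC3 cells. HSPA1A, a major inducible HSP70, was at 389 FPKM in treated and 66.9 FPKM in untreated 22Rv1 cells, and at 1439 FPKM in treated and 136 FPKM in untreated PC3 cells. HSPA1A had a log2 change of 2.52 in 22Rv1 and 3.40 in PC3, and DNAJB1, a J-domain cochaperone, 1.90 and 2.85. HSPA1A and HSPA1B are near-identical copies, so the division of reads between them is uncertain. HSPA8, the constitutive HSP70, had 0.07 and 0.42. In 22Rv1, BAG3 was at 0.881 times its untreated FPKM in the library in which HSPA1A was at 5.81 times its own.

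Of 5 heat shock factors and their binding proteins, 1 was past 2-fold upward in treated 22Rv1 and 0 in treated PC3, and 0 passed the shared test in limma, with 2 higher at an unadjusted p under 0.05. That gene was HSF4, at 29.7 FPKM in treated and 11.3 FPKM in untreated 22Rv1 cells. HSF1 was at 50.6 FPKM in treated and 36.6 FPKM in untreated 22Rv1 cells, and at 78.1 FPKM in treated and 50.9 FPKM in untreated PC3 cells. Among 10 genes of BAG3-dependent selective autophagy, 7 were measured in 22Rv1 and 9 in PC3, with median log2 changes of -0.15 and -0.19 and none at 2-fold, and 0 of 9 tested passed in limma, also at an unadjusted p under 0.05. The cargo receptor SQSTM1 was at 208 FPKM in treated and 160 FPKM in untreated PC3 cells. Filamin A (FLNA), a BAG3 client, was at 191 FPKM in treated and 243 FPKM in untreated PC3 cells. With the length trend removed, the log2 change in PC3 was 0.46 for SQSTM1 and -0.02 for FLNA. The medians of this list were then -0.13 in 22Rv1 and -0.02 in PC3. Of 8 kinases above HSPB1, 8 and 7 were measured, with median log2 changes of -0.11 and -0.32 and none at 2-fold, and 0 of 8 tested passed in limma, with 1 lower at an unadjusted p under 0.05. MAPKAPK2 was at 32.2 FPKM in treated and 40.1 FPKM in untreated 22Rv1 cells, and at 36.5 FPKM in treated and 46.8 FPKM in untreated PC3 cells. Of 15 IFT-B genes, the complex that holds HSPB11, 13 and 14 were measured, with median log2 changes of 0.10 and 0.05 and none at 2-fold. In limma 0 of 13 tested passed, with 1 higher and 1 lower at an unadjusted p under 0.05. At that level 7.75% of all genes were higher and 10.8% lower, which is the share to set beside the counts of these lists.

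BAG6, which guides tail-anchored proteins to the ER, was at 115 FPKM in treated and 126 FPKM in untreated 22Rv1 cells, and at 133 FPKM in treated and 112 FPKM in untreated PC3 cells. BAG4, a binder of death receptor tails, was at 8.63 FPKM in treated and 11.0 FPKM in untreated 22Rv1 cells, and at 8.63 FPKM in treated and 10.6 FPKM in untreated PC3 cells. Of 5 other small heat shock protein genes, 0 passed the filter. HSPB2, HSPB3 and HSPB7 were listed at 0 in all 4 libraries, and HSPB9 and CRYAA, the lens alpha-A-crystallin, reached at most 0.117 and 0.0194 FPKM.

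**Figure D4:**
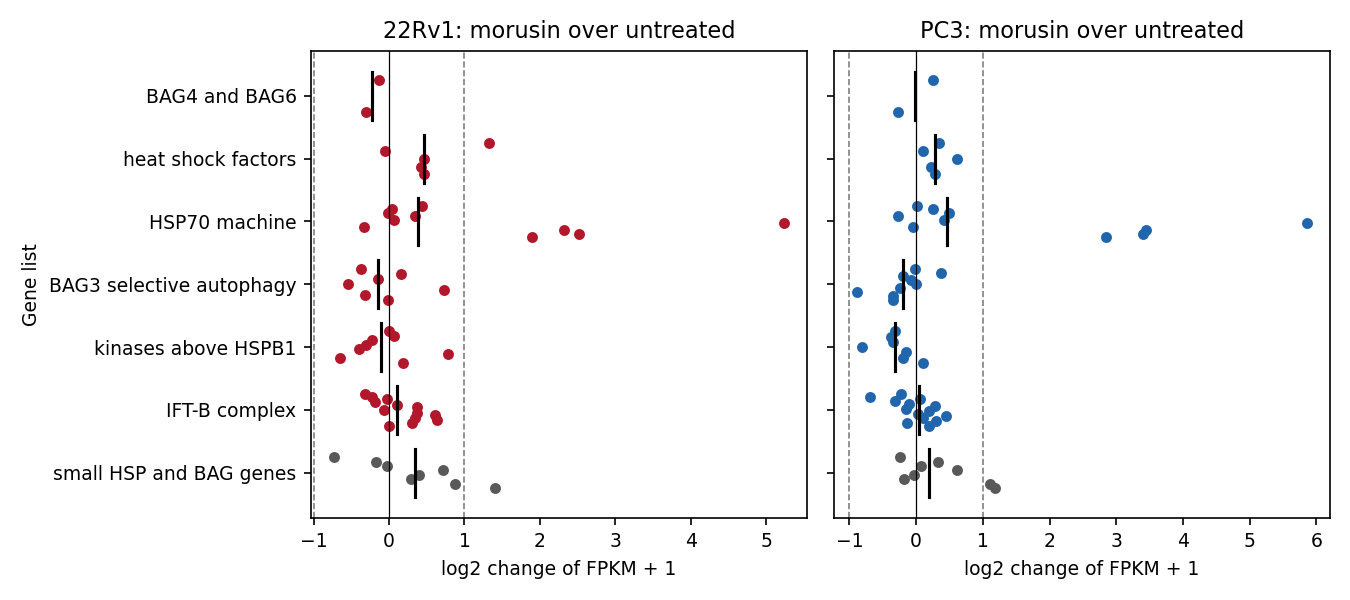
Log2 change of FPKM + 1, morusin over untreated, in 22Rv1 (left) and PC3 (right) for measured genes of the companion lists and of the small heat shock protein and BAG genes, 1 point per gene, with the list median as a bar and dashed lines at 2-fold. HSPA6, HSPA1A, HSPA1B and DNAJB1 stand apart from the other points in both lines, and HSF4 is past 2-fold in 22Rv1.

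Genes most like HSPB1, which had the largest mean change of the 9, were sought by distance between the changes in the lines, over 7533 genes with 5 FPKM or more in each line. Among the nearest were MSH5 at a distance of 0.11, MIR6859-4 at 0.12, PVT1 at 0.22 and RPL37 at 0.29. Those nearest to BAG5, which had the lowest mean change, were POLR3B, DHX8, SOS1, NUP205 and NIPBL, at distances of 0.01 to 0.03. Likeness here rests on a pair of changes, with the length trend left in. The genes nearest to BAG5 have transcripts of 4273 to 10435 bases, against 4848 for BAG5. Those named near HSPB1 have 68 (MIR6859-4) to 7686 bases (RPL37), against 909 for HSPB1. The part of the length trend in these likenesses was not tested.

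The pseudogenes HSPB1P1 and HSPB1P2, which resemble HSPB1, were at 1.84 and 0.254 FPKM in treated 22Rv1, against 0.346 and 0.0575 FPKM in untreated 22Rv1. In PC3 they were at 0.378 and 0.147 FPKM in treated cells, against 0.301 and 0.0309 FPKM in untreated cells. How reads shared with HSPB1 were divided is not stated.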

How the data were processed

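The authors deposited FPKM for 60617 Ensembl gene IDs, with a column for each of 4 libraries. Per the labels' protocols, total RNA was made into libraries with the TruSeq RNA v2 kit and read as pairs of 150 bases. The submitters' processing notes name Trimmomatic, HISAT2, StringTie and the GRCh38 build. Their versions and the gene annotation are not stated there. Count models were not applied to these values.

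Gene names came from a gene name table (60261 IDs matched) and GENCODE 29, which still lists IFT25 as HSPB11. Lengths are the (lower) median of APPRIS principal transcripts, or of the basic set or all transcripts where a gene has none. They were found for 99.6% of measured genes in 22Rv1 and 99.7% in PC3. Depth was estimated from single-exon genes of 600 to 5000 bases. The step taken as 1 pair had 56 to 81 values within 1.5% of it, among 1130 to 1462 low ones in a library.

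Changes used a pseudocount of 1, over genes reaching 1 FPKM in either library of a line. For the shared test, limma (eBayes with a mean trend) was fitted to log2(FPKM + 1) with terms for line and treatment, over genes reaching 1 FPKM in 2 or more libraries, with Benjamini-Hochberg adjustment. The line, given by the labels, pairs the libraries. The fit was run on simulated libraries with the same changes in both lines and noise with an SD of 0.15 on the log2 scale. It called 50 of 50 genes raised by 1, 40 of 43 lowered by 1 and 10 of 13928 left unchanged. The simulation does not show how the fit performs where the lines respond differently. Per-line changes have no test. The length trend was a lowess with a fraction of 0.3. Sequences are from RefSeq.

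Members, companion lists and tests were chosen with earlier results of these data known. All 9 members are named. Of the companions, the text draws on those past 2-fold and up to 3 per list by mean FPKM, besides HSPB9, CRYAA, HSPB2, HSPB3 and HSPB7. The 5 genes nearest to the members of largest and lowest mean change are also named, apart from 1 that is not reported here. Alternatives were other pseudocounts, filters, scalings, the length trend, and limma without its trend or the line term. Python 3.11.15, numpy 2.4.6, pandas 2.3.3, statsmodels 0.14.6, matplotlib 3.10.9, R 4.3.3 and limma 3.58.1 were used.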

Additional observations from a re-analysis of the deposited data

Results flagged for a closer look

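BAG3 moved in opposite directions in the lines, with a log2 change of -0.17 in 22Rv1 and 0.32 in PC3. The 95% counting interval of its ratio of FPKM left out 1 in each line, but covers counting error only. Each change lay between the 5th and 95th percentile of all measured genes, -0.72 to 0.90 in 22Rv1 and -0.82 to 0.51 in PC3. With 1 library per group the difference between the lines was not tested.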

How the results depend on the processing

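HSPB1 kept its direction and stayed at 2-fold under all 5 alternatives of scale, pseudocount and length, at 1.04 to 1.41 in 22Rv1 and 1.08 to 1.24 in PC3. Its adjusted p in limma stayed under 0.05 in 7 of 9 alternatives (6.02e-06 to 1.0 over the 9). With no filter, limma called 0 genes higher and 0 lower (969 and 1313 at an unadjusted p under 0.05), and with the line block left out (no pairing) 0 and 0 (27 and 27), against 49 and 33. The lowest adjusted p then were 0.557 and 1.0, in which HSPB1 was no longer called. The shared counts, higher and lower, were 18 and 15 with a pseudocount of 5 and 313 and 1278 after rescaling to equal sums. Of the higher genes alone, 156 were called after median centring and 29 without the mean trend, and of the lower, 100 with a filter at 5 FPKM. Counts at 2-fold in 22Rv1, 465 higher and 136 lower, became 844 and 376 with a pseudocount of 0.1, 151 and 33 with 5, and 255 and 351 after rescaling to equal sums, which moved the median of all genes to -0.18. With the length trend removed, 284 were higher. In PC3, 160 and 341 became 259 and 680 with 0.1 and 74 and 85 with 5. With a filter at 5 FPKM 105 were higher, and with the length trend removed 204 were lower. Of genes past 2-fold, 77.4% were higher in 22Rv1, against 42.1% after rescaling and 60.6% without the length trend. In PC3 31.9% were, against 23.7% and 42.7%, and 46.5% with a pseudocount of 5. Members at 2-fold in PC3 were 1 with a pseudocount of 5 and 1 with a filter at 5 FPKM, since CRYAB is low. Leaving CRYAB out, an alternative chosen after seeing the data, also gave 1. With a pseudocount of 5, 1 member was at least 2-fold lower in untreated 22Rv1, and 3 were higher with that pseudocount, with median centring and with a filter at 5 FPKM, against 4. The median of all genes moved to -0.14 in PC3 after rescaling. Of measured members, signs flipped for BAG2 with the length trend removed in 22Rv1 (0.35) and after rescaling in PC3 (-0.01), and for HSPB11 in PC3 after median centring (0.03). The shared changes of HSPB8, HSPB11, BAG2 and BAG3 also took the other sign under at least 1 alternative, and none of these passed the test under any. Leaving out a library was not possible, since each group has 1. The causes were not tested.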
